A study of Mus musculus with 38 samples.

Results

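Fibroblasts answer the inflammatory cytokine TNF with a wave of new transcription, and the 4 libraries described here catch that wave at 8 h in wild-type (WT) cells. The cells were primary mouse embryonic fibroblasts from C57BL/6 embryos with no engineered allele, held overnight in low serum before treatment. The 2 treated libraries came from cells given TNF at 10 ng/ml for 8 h, and the 2 untreated libraries from starved cells that received no agent. The untreated libraries are labelled 0 h, and the series holds no untreated library at 8 h. Effects of TNF and of the added hours in culture therefore cannot be told apart in any change below. The treated and untreated libraries are 4 of the 38 libraries of the series. They were chosen by genotype, agent and time in the labels, with no measured value used. The other 34 libraries hold earlier TNF times, other agents, and cells that carry an altered RelA allele, named RelA-TA-KI in the labels. All 20 libraries of the TNF experiment shared a fit. Of them, WT cells at 0.5, 1 and 3 h of TNF and RelA-TA-KI cells, untreated or at 8 h, enter below for comparison. Polyadenylated RNA was sequenced, and the total came to 7800937 and 8079852 counts per library with TNF, against 6715022 and 9590932 counts in untreated cells. Of 45706 gene identifiers, 13843 passed a filter on low counts and were tested.

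TNF binds TNFR1, which gathers adaptor proteins, ubiquitin ligases and kinases into a complex that activates the IKK kinases. IKK marks the IkB inhibitors for destruction, and NF-kB dimers such as RelA:p50 then enter the nucleus and bind kB motifs near their target genes. The targets include the IkB proteins and A20, which shut the pathway down again, and chemokines, cytokines and adhesion molecules. In fibroblasts TNF is also known to start a slower second wave through IRF1 and interferon-beta, which turns on interferon-stimulated genes. Embryonic fibroblasts are matrix-producing mesenchymal cells, and TNF is known to oppose several actions of TGF-beta in them.

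Levels are given below in CPM, the counts of a gene scaled to a common library size, for replicate 1 and then replicate 2 of a group. Changes are log2 fold changes of TNF 8 h over untreated with an approximate standard error. They come from a fit across all genes in which a gene was called at an adjusted p below 0.05. The error is too small where a large change starts from few untreated counts, as in Ccl5 and Ccl20. The labels do not say whether the replicates came from separate embryos or cultures, so p-values measure only the spread between these samples. In RNA from whole cultures, fewer cells of a type and less RNA per cell cannot be told apart.

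The fibroblast label matched the markers. All 12 fibroblast markers were measured, with a summed level of 22630 and 30150 CPM with TNF, against 25610 and 33060 CPM in untreated cells. Of these 12, 2 fell, against 1 without TNF replicate 1 and 0 without untreated replicate 2; with the replicate block described below 7 fell and 2 rose. Macrophage and leukocyte markers were present at a lower level, summing over 18 genes to 1480 and 2360 CPM with TNF, against 1258 and 1958 CPM in untreated cells. Among them Cd14 was called higher, though with adjusted p = 0.153 without TNF replicate 2, 0.108 without untreated replicate 1 and 0.0652 without untreated replicate 2. Ptprc, the defining leukocyte marker, had 26.9 and 45.4 CPM with TNF, against 26.1 and 40.1 CPM in untreated cells, and was not called. The 10 endothelial markers summed to 153.8 and 239.3 CPM with TNF, against 130.8 and 119.5 CPM in untreated cells; Flt1 rose (1.87 ± 0.29) and Erg fell (-1.77 ± 0.25). Tek fell as well, with adjusted p = 0.0504 without TNF replicate 2 and 0.0922 without untreated replicate 2. The 9 epithelial markers summed to 55.5 and 59.95 CPM with TNF, against 168.2 and 37.5 CPM in untreated cells, with no member called. The 11 tested muscle markers summed to 163.7 and 112.5 CPM with TNF, against 167.2 and 108.0 CPM in untreated cells, again with no member called. Of 7 neural markers tested, Map2 fell. No lymphoid marker had enough counts to be tested. The part that macrophages or other cells played in the changes below was not tested.

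The replicate numbers marked different cells. Xist, transcribed from the inactive X chromosome of females, had 426 and 3.9 CPM with TNF, against 404 and 2.32 CPM in untreated cells, and the Y-linked Ddx3y had 0.256 and 143 CPM with TNF, against 0.145 and 145 CPM in untreated cells. Replicate 1 was therefore female in pattern and replicate 2 male in pattern in both groups, so that sex is balanced between treated and untreated cells. The 2 replicate 2 libraries also had more interferon-stimulated RNA than their replicate 1 partners. Over 50 antiviral interferon-stimulated genes the summed level was 3722 and 5694 CPM with TNF, against 1101 and 1626 CPM in untreated cells. The treated libraries correlated at Pearson r = 0.983 and the untreated ones at 0.982 across genes on the log2 CPM scale; genes are not independent replicates.

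Between TNF at 8 h and untreated cells at 0 h, 2882 genes differed, or 20.8% of those tested. Of these, 1664 were higher with TNF (12.0%) and 1218 lower (8.8%). The rises were larger than the falls: 515 genes rose and 307 fell at least 2-fold, 248 rose and 48 fell at least 4-fold, and 61 rose and 6 fell at least 16-fold. Genes called higher held 18.28 and 19.36% of all counts with TNF, against 12.02 and 11.93% in untreated cells. Genes called lower held 7.56 and 7.32% with TNF, against 10.93 and 11.13% in untreated cells. The median log2 fold change over all genes tested was -0.01, a value that the scaling of the libraries holds near 0.

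The count depended on how the replicates were treated. A fit that took out the shift shared by same-numbered libraries called 4534 genes (32.8%), of which 2391 were higher (17.3%) and 2143 lower (15.5%). Leaving out single libraries lowered the count, to 1764 without untreated replicate 2 and to 1911 without TNF replicate 2. Over these leave-one-out fits 1262 genes kept their call whichever of the 4 libraries was left out, 851 of them higher and 411 lower.

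**Figure D1:**
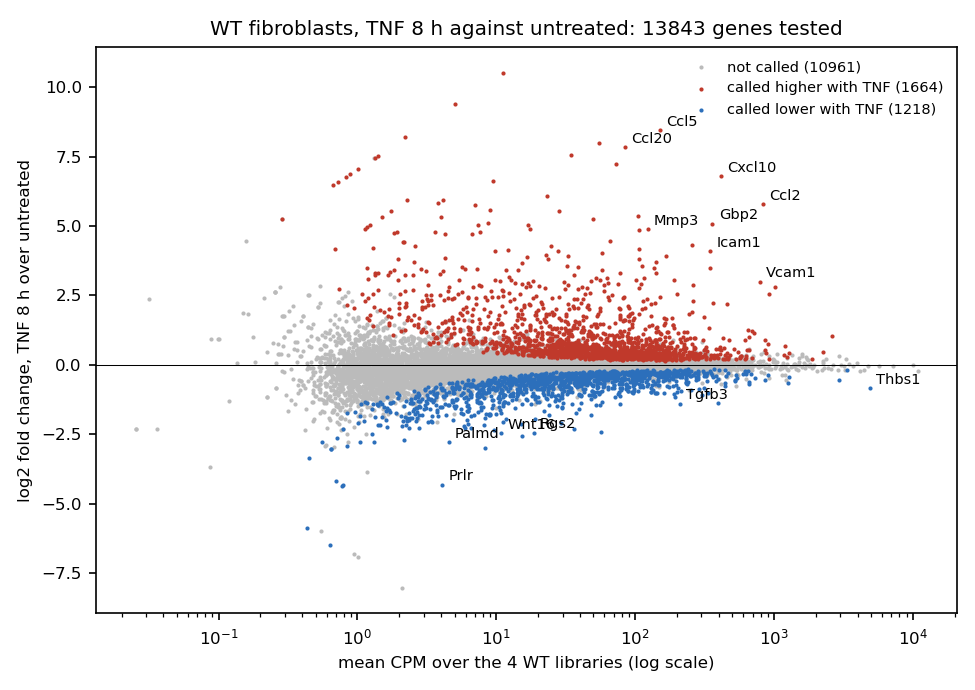
Log2 fold change of TNF 8 h over untreated (vertical axis) against mean CPM over the 4 libraries (horizontal axis, log scale), 1 point per gene tested, with the 1664 genes called higher in red and the 1218 called lower in blue. The cloud of rises reaches far higher than the falls reach low, with Ccl5, Ccl20, Cxcl10 and Ccl2 among the abundant genes of large rise and Prlr the low point among the falls named.

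The genes that rose most encode chemokines, GTPases of cell-autonomous defence, and proteins of lymphoid or myeloid cells. The promoters of 4 of them are shown because they hold the motifs at which NF-kB, the interferon factors and the STATs are known to bind. The letters are the 250 bases upstream of the start in RefSeq (build GRCm38.p6), 5′ to 3′ on the strand of the gene, with motif matches in capitals. Cxcl10 encodes a chemokine for T cells (chr5:92348890-92349139, minus strand), and its window held an interferon-stimulated response element core followed by kB matches. Gbp5 encodes a guanylate-binding GTPase (chr3:142496684-142496933, plus strand), and its window held kB, interferon-stimulated response element and gamma-activated site cores. Ccl20 encodes the ligand of CCR6 (chr1:83116516-83116765, plus strand), and the capitals there are a kB match. Madcam1 encodes an adhesion molecule of gut vessels (chr10:79664309-79664558, plus strand), with neighbouring kB matches close to the start.
Cxcl10: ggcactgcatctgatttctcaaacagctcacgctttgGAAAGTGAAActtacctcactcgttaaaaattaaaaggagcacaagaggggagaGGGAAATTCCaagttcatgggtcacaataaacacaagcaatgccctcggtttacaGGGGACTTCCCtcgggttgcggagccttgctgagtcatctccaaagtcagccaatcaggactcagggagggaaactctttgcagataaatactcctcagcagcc
Gbp5: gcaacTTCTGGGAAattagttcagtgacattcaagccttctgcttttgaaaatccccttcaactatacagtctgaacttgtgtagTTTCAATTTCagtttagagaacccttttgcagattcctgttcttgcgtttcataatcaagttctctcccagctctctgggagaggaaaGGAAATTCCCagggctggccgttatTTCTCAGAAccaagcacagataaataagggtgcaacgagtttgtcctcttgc
Ccl20: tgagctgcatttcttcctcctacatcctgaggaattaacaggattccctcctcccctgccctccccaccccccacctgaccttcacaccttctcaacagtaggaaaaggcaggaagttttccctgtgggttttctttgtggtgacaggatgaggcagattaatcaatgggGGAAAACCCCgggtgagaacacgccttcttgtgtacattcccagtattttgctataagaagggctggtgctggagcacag
Madcam1: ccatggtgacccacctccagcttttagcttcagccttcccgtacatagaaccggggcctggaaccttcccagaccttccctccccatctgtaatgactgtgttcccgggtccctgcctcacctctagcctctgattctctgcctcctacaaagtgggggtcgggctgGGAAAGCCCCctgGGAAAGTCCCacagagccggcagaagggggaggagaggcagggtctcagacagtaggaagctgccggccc

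The motifs searched, on both strands, were the 10-base kB consensus, the 10-base interferon-stimulated response element core and the gamma-activated site core TTCNNNGAA, which reads alike on both strands. Matches of different motifs may overlap. A match is a description of these letters and not a bound site. A RefSeq promoter matched by symbol, chromosome and strand was available here for 10592 of the 13843 genes tested. Of these, 9.01% held a kB match, 2.65% an interferon-stimulated response element core and 5.68% a gamma-activated site core. Among promoters of genes called higher the shares were 13.0, 6.07 and 7.6%, and among those that rose at least 4-fold (176 promoters) they were 29.0, 17.0 and 13.6%. Among promoters of genes called lower they were 9.49, 0.981 and 5.34%. By group, 7 of 15 promoters of the IkB and ubiquitin brakes held a kB match, as did 9 of 20 for MHC class I presentation and 6 of 19 for chemokines. For the guanylate-binding and immunity-related GTPases, 9 of 10 promoters held the interferon-stimulated response element core and 6 of 10 the gamma-activated site core. For the antiviral interferon-stimulated genes, 13 of 38 promoters held the interferon-stimulated response element core. Of the 15 genes that rose most, 9 had such a matched promoter, and those of Acod1, Cxcl9 and Clec4e held no match to these motifs in this window.

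Among the named genes with reads in both groups, Ccl5 rose most. Ccl5 encodes a chemokine for T cells and monocytes and had 264 and 334 CPM with TNF, against 0.725 and 0.908 CPM in untreated cells, a log2 fold change of 8.46 ± 0.29 (adjusted p = 1.1e-10). Ccl20 had 163 and 171 CPM with TNF, against 0.87 and 0.605 CPM in untreated cells, and its log2 fold change was 7.84 ± 0.18 (adjusted p = 2.8e-12). Ccl2, the main monocyte chemokine, had 1573 and 1716 CPM with TNF, against 26.1 and 32.8 CPM in untreated cells, with a log2 fold change of 5.79 ± 0.17 (adjusted p = 2.1e-11). For these 3 chemokines the replicates lay close together and the groups did not come near each other. Having no overlap was a condition of choosing them. Cxcl10 had 629 and 1011 CPM with TNF, against 4.5 and 9.68 CPM in untreated cells, a log2 fold change of 6.79 ± 0.38, which was 7.51 without untreated replicate 2. Gbp5 had 77.9 and 141 CPM with TNF, against 0.145 and 0.605 CPM in untreated cells, a log2 fold change of 7.99 ± 0.51, which was 9.42 without untreated replicate 2. In both Cxcl10 and Gbp5 replicate 2 was the higher library in each group. Nos2, the inducible nitric oxide synthase, had 7.94 and 8.42 CPM with TNF, against 0.145 and 0.101 CPM in untreated cells, a ratio of 68.8-fold (95% counting interval 18.7 to 574) that covers counting error only. Clec4e, a receptor for mycobacterial glycolipid on myeloid cells, had 31.6 and 59.9 CPM with TNF, against 0.725 and 0.605 CPM in untreated cells, and its log2 fold change was 6.1 ± 0.79.

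A few genes had no read in either untreated library. Spib, an ETS-family transcription factor known from B cells and dendritic cells, had 133 and 219 counts with TNF and 0 in untreated cells. Set against a floor of 3 counts over both untreated libraries together, this was at least 125-fold higher. Madcam1 had 63 and 97 counts with TNF, at least 56.9-fold higher than the same floor. Il1b, the cytokine interleukin-1 beta, had 23 and 47 counts with TNF, at least 24.9-fold higher than the floor. These 3 genes were chosen for having 0 untreated counts and at least 50 counts with TNF, and their level with TNF was modest. The antisense transcript Gm16685 was also among the 15 largest rises, with 16.3 and 21.4 CPM with TNF, against 0 and 0.303 CPM in untreated cells. This was a ratio of 106-fold (95% counting interval 35.8 to 515), with all its untreated reads in replicate 2.

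**Figure D2:**
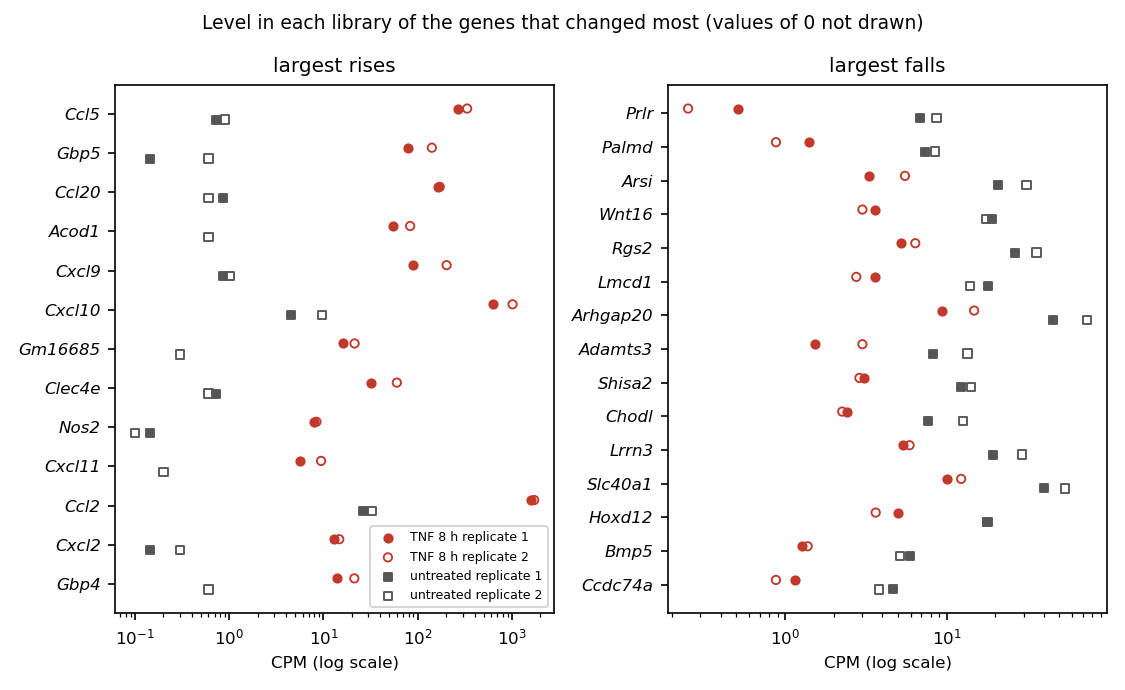
CPM (log scale) in each of the 4 libraries for the genes of largest rise (left, those with untreated reads) and largest fall (right), with TNF libraries as red circles above untreated libraries as grey squares; filled symbols are replicate 1 and open symbols replicate 2, and a library at 0 is not drawn. Red and grey symbols of a gene do not overlap because that was a condition of choosing the genes. The gaps are narrower among the falls.

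Genes are described next by the lists they belong to, each set beside the 12.0% of all genes called higher and the 8.8% called lower. A list's counts of 1 to 4 calls often moved by 1 or 2 when single libraries were left out, and they are given as they stood with all libraries. In most brakes of the NF-kB pathway the level rose. Of 16 IkB proteins and ubiquitin-editing brakes tested, 11 were higher with TNF, and their median log2 fold change was 1.45. Nfkbia encodes IkB-alpha and had 309 and 317 CPM with TNF, against 22.9 and 18.8 CPM in untreated cells (3.92 ± 0.12, adjusted p = 3.4e-11). Nfkbie, encoding IkB-epsilon, had 119 and 135 CPM with TNF, against 4.93 and 6.35 CPM in untreated cells (4.47 ± 0.19). Tnfaip3 encodes A20, which removes activating ubiquitin chains, and had 181 and 221 CPM with TNF, against 12.5 and 9.98 CPM in untreated cells (4.18 ± 0.16). In all 3 the treated libraries stood far above the untreated ones. Bcl3, a nuclear IkB protein, rose by 2.77 ± 0.26, Tnip1, a partner of A20, by 2.38 ± 0.14, and Zc3h12a, an RNase that cuts cytokine mRNAs, by 1.81 ± 0.19 on the log2 scale. Otulin, which removes linear ubiquitin, had 24.1 and 24.8 CPM with TNF, against 25.1 and 28.3 CPM in untreated cells, and was not called.

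Of 14 NF-kB subunits and kinases 8 were higher, with a median of 0.51. All 5 subunit genes were among them: Relb (2.87 ± 0.13), Nfkb2 (2.43 ± 0.07), Nfkb1 (1.45 ± 0.07), Rela (1.11 ± 0.06) and Rel (0.71 ± 0.09). Relb, which pairs with p52 in the non-canonical pathway, had 100.3 and 109 CPM with TNF, against 15.2 and 13.6 CPM in untreated cells. Rela had 163 and 148 CPM with TNF, against 71.9 and 72.6 CPM in untreated cells, a smaller separation with no overlap. Of all genes tested, 28.1% had no overlap with TNF higher and 28.4% had none with TNF lower. Of the kinases, Ikbkb encodes IKK-beta and rose by 0.55 ± 0.08, while Ikbkg, the scaffold NEMO, had 58.1 and 58.3 CPM with TNF, against 58 and 59.2 CPM in untreated cells, and was not called.

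Within the receptor complex 9 of 15 genes rose, with a median of 0.58. The largest rise was in Traf1, an adaptor induced by NF-kB, with 17.8 and 15.8 CPM with TNF, against 0.435 and 0.504 CPM in untreated cells (5.1 ± 0.36). Birc3 encodes the ubiquitin ligase cIAP2 and had 85.9 and 115 CPM with TNF, against 11.2 and 12.6 CPM in untreated cells (3.07 ± 0.17). Its paralog Birc2 rose less (1.27 ± 0.12). Cflar, the inhibitor of caspase-8, rose by 0.7 ± 0.09 and Casp8 itself by 0.81 ± 0.1. Tnfrsf1b, encoding TNFR2, rose by 0.88 ± 0.18, while Tnfrsf1a, encoding TNFR1, had 144 and 152 CPM with TNF, against 162 and 167 CPM in untreated cells, and was called lower with the replicate block (adjusted p = 0.037) but not without it. The kinase gene Ripk1 had 63.9 and 69.6 CPM with TNF, against 58 and 61.5 CPM in untreated cells, and the adaptor gene Tradd 18.3 and 18 CPM with TNF, against 17.4 and 17.3 CPM in untreated cells; neither was called.

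Chemokines were the cytokine group with the highest median change, 3.37, and 18 of 27 tested members rose. Corrected for transcript length, Ccl2 was the most abundant chemokine mRNA with TNF, at a mean of 5256 TPM, the length-scaled analogue of CPM, against 100.5 TPM in untreated cells. It was followed by Ccl7 at 2202 TPM with TNF, against 118 TPM in untreated cells, and by Cxcl10 at 1325 TPM with TNF, against 12.3 TPM in untreated cells. Ccl5 reached 1133 TPM with TNF, against 3.3 TPM in untreated cells. Ccl7, a relative of Ccl2, had 463 and 507 CPM with TNF, against 21 and 27.5 CPM in untreated cells (4.31 ± 0.21). Cxcl1, a neutrophil chemokine, had 40.2 and 45.1 CPM with TNF, against 2.03 and 3.23 CPM in untreated cells (3.96 ± 0.4). Cx3cl1 encodes fractalkine, a membrane-bound chemokine, and had 198 and 202 CPM with TNF, against 12.8 and 15.2 CPM in untreated cells (3.82 ± 0.15). Cxcl5 rose by 2.67 ± 0.37, Cxcl16 by 2.34 ± 0.25 and Ccl9 by 2.32 ± 0.45. Cxcl9, like Cxcl10 a ligand of CXCR3, had 88.8 and 202 CPM with TNF, against 0.87 and 1.01 CPM in untreated cells; its log2 fold change of 7.24 ± 0.53 was 6.52 without TNF replicate 2. The homeostatic chemokine Cxcl12 had 303 and 303 CPM with TNF, against 311 and 371 CPM in untreated cells, and was called lower with the replicate block (adjusted p = 0.033) but not without it.

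Of 20 interleukins and colony-stimulating factors 9 rose and 1 fell, with a median of 1.00. Il6, the cytokine that drives the acute phase response, had 2.82 and 4.78 CPM with TNF, against 0.58 and 0.605 CPM in untreated cells (2.65 ± 0.47). Csf1, the macrophage growth factor, had 1675 and 1483 CPM with TNF, against 301 and 238 CPM in untreated cells (2.55 ± 0.17). Il34, which acts on the same receptor as Csf1, rose by 2.61 ± 0.23, Tslp by 3.45 ± 0.41 and Lif by 1.9 ± 0.22. Kitl, the ligand of KIT, was the member that fell, with 32.5 and 34.1 CPM with TNF, against 66.4 and 68.4 CPM in untreated cells (-1.02 ± 0.11). Il18 had 1.79 and 3.52 CPM with TNF, against 2.9 and 3.03 CPM in untreated cells, and was not called.

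TNF superfamily ligands had 6 of 9 tested genes higher, with a median of 2.25. Tnf itself was at a low level, with 8.07 and 11.1 CPM with TNF, against 1.16 and 1.11 CPM in untreated cells, and rose (3.06 ± 0.54, adjusted p = 0.00092). Tnfsf11, the osteoclast factor RANKL, had 22.4 and 16.2 CPM with TNF, against 3.34 and 2.82 CPM in untreated cells (2.66 ± 0.27). Tnfsf15 rose by 1.51 ± 0.27, and Tnfsf9 had 8.2 and 8.8 CPM with TNF, against 8.56 and 5.95 CPM in untreated cells, with no call. Among 15 receptors of the superfamily 6 rose, with a median of 0.34. This count was 3 without TNF replicate 1 and 3 without untreated replicate 2, and it was 10 with the replicate block, which also called 1 lower. Fas, the death receptor, had 107 and 124 CPM with TNF, against 20.6 and 19.7 CPM in untreated cells (2.53 ± 0.12). Cd40, the receptor for T-cell help, had 13.2 and 18.3 CPM with TNF, against 2.03 and 2.82 CPM in untreated cells (2.66 ± 0.27), and Tnfrsf14 rose by 2.18 ± 0.42. Ltbr, the lymphotoxin receptor, had 103 and 106 CPM with TNF, against 99.2 and 103 CPM in untreated cells, and was not called.

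Receptors for other cytokines rose in 20 of 30 cases and fell in 1, with a median of 0.87. Il15ra, which presents interleukin-15, had 17.3 and 25.3 CPM with TNF, against 2.32 and 1.71 CPM in untreated cells (3.42 ± 0.25). Il1r1 rose by 1.31 ± 0.2, its accessory chain Il1rap by 1.17 ± 0.15, and Il13ra1 by 1.69 ± 0.2. All 4 interferon receptor chains were higher: Ifngr1 by 1.23 ± 0.14, Ifngr2 by 1.16 ± 0.06, Ifnar2 by 0.98 ± 0.16 and Ifnar1 by 0.65 ± 0.13. Il17rd was the member that fell, with 38.4 and 43 CPM with TNF, against 57.7 and 63.6 CPM in untreated cells (-0.58 ± 0.11). Il7r had 3.46 and 6.03 CPM with TNF, against 4.5 and 5.24 CPM in untreated cells, and was not called.

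Adhesion molecules for leukocytes showed 8 rises and 2 falls among 13 genes, with a median of 1.10. Icam1, the ligand of leukocyte integrins, had 594 and 717 CPM with TNF, against 36 and 40.9 CPM in untreated cells (4.09 ± 0.22). Vcam1, the ligand of VLA-4, had 1229.9 and 1585 CPM with TNF, against 169 and 183 CPM in untreated cells (3.0 ± 0.17). Both were abundant, and neither group's libraries approached the other's. The selectin genes Sele and Selp, usually described in endothelium, were low: Sele had 11 and 9.8 CPM with TNF, against 0.725 and 1.01 CPM in untreated cells (3.53 ± 0.42), and Selp had 6.4 and 9.05 CPM with TNF, against 1.6 and 0.908 CPM in untreated cells (2.67 ± 0.44). The defining endothelial marker Cdh5 had 5.64 and 4.9 CPM with TNF, against 7.54 and 6.35 CPM in untreated cells, and was not called. Cd44, the hyaluronan receptor, rose by 1.14 ± 0.23, whereas Alcam fell (-0.53 ± 0.08). Mcam also fell (-0.97 ± 0.3), with adjusted p = 0.241 without TNF replicate 2 and 0.232 without untreated replicate 1.

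Regulators of the interferon response rose in 14 of 24 cases, with a median of 0.71. Irf1 had 182 and 233 CPM with TNF, against 21.8 and 25.7 CPM in untreated cells (3.12 ± 0.17). Stat2, a signal transducer of type I interferon, rose by 1.37 ± 0.26. Irf7, which amplifies type I interferon, had 39.6 and 69 CPM with TNF, against 8.27 and 15.1 CPM in untreated cells (2.18 ± 0.36), with replicate 2 the higher library of each group. Ikbke, a kinase of the same route, rose by 1.75 ± 0.13, Jak2 by 1.75 ± 0.23 and Socs1, which inhibits JAKs, by 1.37 ± 0.3. Irf3 had 33.2 and 31.8 CPM with TNF, against 32.8 and 29.5 CPM in untreated cells, and Stat3 276 and 329.9 CPM with TNF, against 296 and 315 CPM in untreated cells, and neither was called. Ifnb1 and the genes for several other interferon-linked factors had too few counts to be tested.

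The antiviral interferon-stimulated genes moved together: 47 of 50 rose (49 with the replicate block), with a median of 2.12. This count was 33 without TNF replicate 2 and 34 without untreated replicate 1. Ifit2, which blocks translation of viral RNA, had 176 and 281 CPM with TNF, against 39.6 and 58 CPM in untreated cells (2.21 ± 0.23). Herc6, the mouse ligase for ISG15, had 54.2 and 102 CPM with TNF, against 10.4 and 12.4 CPM in untreated cells (2.76 ± 0.29). Ifih1, the RNA sensor MDA5, had 95.2 and 152 CPM with TNF, against 24.9 and 34.4 CPM in untreated cells (2.05 ± 0.27), and Ddx58, the sensor RIG-I, rose by 1.7 ± 0.16. In Ifit2, Herc6 and Ifih1 replicate 2 was the higher library in both groups. Ifitm3, which hinders viral entry, rose by 1.33 ± 0.15, Parp9 by 2.11 ± 0.3 and Trim21 by 1.57 ± 0.2. The ubiquitin-like modifier Isg15 had 119 and 256 CPM with TNF, against 12.8 and 41 CPM in untreated cells, and its log2 fold change of 2.75 ± 0.59 was 2.10 without TNF replicate 2 and 3.88 without untreated replicate 2. Ifi27 was not called, with 51.2 and 72.4 CPM with TNF, against 46.1 and 61.8 CPM in untreated cells.

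Guanylate-binding proteins and immunity-related GTPases attack vacuoles that hold pathogens, and 15 of 16 tested rose, with a median of 3.89. Their summed level was 1488 and 2402 CPM with TNF, against 134.9 and 231.8 CPM in untreated cells. Gbp2 had 546 and 855 CPM with TNF, against 14.8 and 25.5 CPM in untreated cells (5.09 ± 0.32, adjusted p = 7.9e-08). Gbp6 had 24.7 and 43.4 CPM with TNF, against 0.87 and 1.31 CPM in untreated cells (4.9 ± 0.5), and Tgtp1 had 7.04 and 9.05 CPM with TNF, against 0.725 and 0.403 CPM in untreated cells (3.86 ± 0.57). Irgm1 rose less, by 1.67 ± 0.14. Several members of these families are near-identical copies, and how reads with several places to map were counted is not stated, so the share of each copy is uncertain.

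Presentation on MHC class I followed, with 20 of 25 genes higher and a median of 1.56. H2-K1, a classical class I heavy chain, had 277 and 408 CPM with TNF, against 53.8 and 63.9 CPM in untreated cells (2.53 ± 0.31). B2m, the shared light chain, had 751 and 998 CPM with TNF, against 404 and 474 CPM in untreated cells (0.99 ± 0.15). The immunoproteasome subunit Psmb8 had 38 and 70.6 CPM with TNF, against 6.38 and 7.36 CPM in untreated cells (2.97 ± 0.41), Psmb10 rose by 2.96 ± 0.21 and Psmb9 by 2.41 ± 0.48. Tapbp, the peptide-loading protein tapasin, rose by 2.23 ± 0.18, and the transporter genes Tap2 by 1.92 ± 0.22 and Tap1 by 1.5 ± 0.17. Nlrc5, the class I transactivator, had 17.8 and 33.2 CPM with TNF, against 5.51 and 6.35 CPM in untreated cells (2.09 ± 0.35). The general chaperones Calr, Canx and Pdia3 were not called, with Calr at 1693 and 1430.2 CPM with TNF, against 1557 and 1374 CPM in untreated cells. Of 5 class II genes tested, Cd74, the invariant chain, was called, with 13.2 and 24.1 CPM with TNF, against 1.02 and 1.11 CPM in untreated cells (4.11 ± 0.53); H2-DMa had 3.2 and 3.39 CPM with TNF, against 2.9 and 3.63 CPM in untreated cells. The class II transactivator Ciita had too few counts to be tested.

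Innate sensors and death genes showed 16 rises and 2 falls among 42, with a median of 0.42; without TNF replicate 1 or untreated replicate 2 none of the falls was called. Tlr2, the receptor for bacterial lipoproteins, had 171 and 242 CPM with TNF, against 14.1 and 20.3 CPM in untreated cells (3.57 ± 0.39). Tlr3, the receptor for double-stranded RNA, had 29.2 and 42.1 CPM with TNF, against 10.2 and 9.88 CPM in untreated cells (1.83 ± 0.24). Ripk2, the kinase downstream of NOD receptors, rose by 3.48 ± 0.19, Casp4, encoding caspase-11, by 3.82 ± 0.26, and Nlrp3 by 3.0 ± 0.55. Mlkl, the executor of necroptosis, rose by 1.81 ± 0.17, and Gsdmd, the executor of pyroptosis, by 1.8 ± 0.29. Tlr4 had 41 and 48.3 CPM with TNF, against 40 and 43.9 CPM in untreated cells, and was not called.

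**Figure D3:**
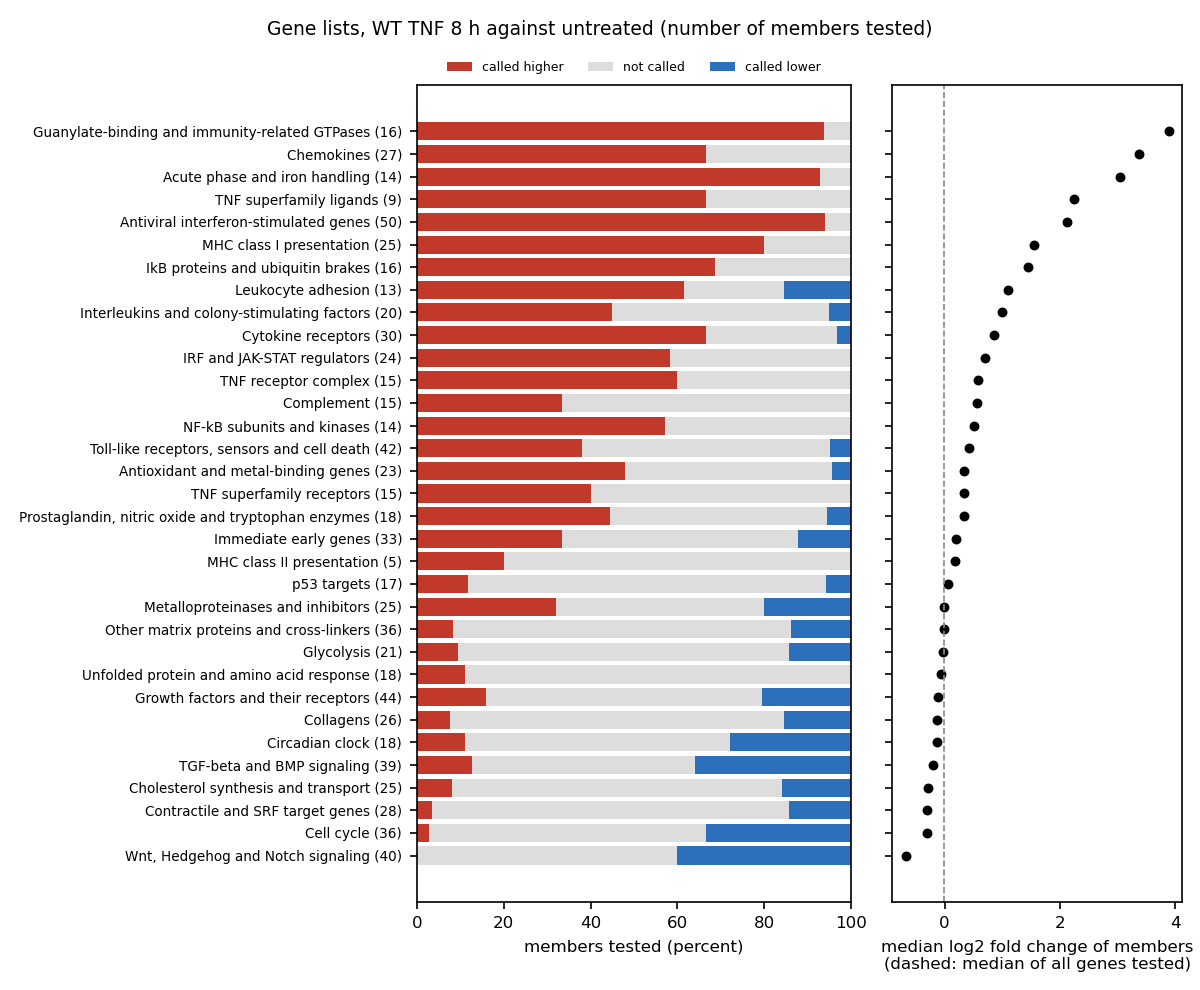
Share of tested members called higher (red), not called (grey) and called lower (blue) in each gene list (left, percent; the number tested is in brackets) and the median log2 fold change of the members (right; dashed line, all genes tested). Immune lists fill the top, led by the guanylate-binding and immunity-related GTPases at 3.89, and the list of Wnt, Hedgehog and Notch signaling stands lowest at -0.68.

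Acute phase and iron-handling genes rose in 13 of 14 tested cases, with a median of 3.05. Ptx3, a soluble pattern-recognition protein, had 495 and 780.4 CPM with TNF, against 47.9 and 64.1 CPM in untreated cells (3.5 ± 0.25). Lbp, which hands endotoxin to CD14, had 35.5 and 58.6 CPM with TNF, against 2.32 and 2.42 CPM in untreated cells (4.3 ± 0.44). Cp, the ferroxidase ceruloplasmin, rose by 1.66 ± 0.22 and Serpina3g by 3.69 ± 0.2. Tfrc, the transferrin receptor, was the tested member not called, with 203 and 161 CPM with TNF, against 216 and 149 CPM in untreated cells. Slc40a1, the iron exporter ferroportin, is not in this list and was among the 15 largest falls, with 10.1 and 12.3 CPM with TNF, against 39.9 and 54.2 CPM in untreated cells (-2.07 ± 0.25). Of 15 complement genes 5 rose, with 3 without TNF replicate 2, 3 without untreated replicate 1, and 8 higher and 3 lower with the replicate block. C3, the central component, had 147 and 260.0 CPM with TNF, against 6.24 and 3.83 CPM in untreated cells (5.38 ± 0.41, adjusted p = 5.3e-07). C1s1 rose by 1.42 ± 0.22, and Cd55, a brake on complement, by 0.93 ± 0.15.

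Enzymes of prostaglandin, nitric oxide and tryptophan metabolism rose in 8 of 18 cases and fell in 1, with a median of 0.34. Ptges, the prostaglandin E synthase, had 57.6 and 70.1 CPM with TNF, against 10 and 14.1 CPM in untreated cells (2.38 ± 0.25). Gch1, which makes the cofactor of nitric oxide synthase, had 32.9 and 37.7 CPM with TNF, against 6.24 and 3.93 CPM in untreated cells (2.83 ± 0.24), and the arginine transporter gene Slc7a2 rose by 2.32 ± 0.14. Ptgs2, encoding COX-2, had 185 and 111 CPM with TNF, against 148 and 59.2 CPM in untreated cells, and was called higher with the replicate block (adjusted p = 0.0043) and without a filter on low counts, but not otherwise. Of 23 antioxidant and metal-binding genes 11 rose and 1 fell, with a median of 0.34. Sod2, the mitochondrial superoxide dismutase, had 179.7 and 249 CPM with TNF, against 51.1 and 43.8 CPM in untreated cells (2.18 ± 0.16). Sod3, the extracellular form, rose by 1.56 ± 0.13 and Mt2, a metallothionein, by 1.92 ± 0.14. Sod1 had 96.7 and 101 CPM with TNF, against 111 and 104 CPM in untreated cells, and was not called.

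Matrix-degrading enzymes moved both ways, with 8 rises and 5 falls among 25 proteases and inhibitors (11 and 6 with the replicate block) and a median of -0.01. The stromelysin gene Mmp3 had 245 and 230.5 CPM with TNF, against 7.69 and 8.27 CPM in untreated cells (4.89 ± 0.13, adjusted p = 1.6e-11). Mmp13, a collagenase, had 123 and 142 CPM with TNF, against 12.9 and 21.5 CPM in untreated cells (2.91 ± 0.34), and Mmp10 rose by 3.47 ± 0.46. Adamts5, an aggrecanase, had 166 and 189 CPM with TNF, against 314 and 347 CPM in untreated cells (-0.9 ± 0.1), and Adamts1 also fell (-1.07 ± 0.1). Timp3 had 1099.8 and 1076 CPM with TNF, against 1495 and 1430.2 CPM in untreated cells, a small fall (-0.43 ± 0.06). Mmp2, the most studied gelatinase of fibroblasts, had 607 and 731 CPM with TNF, against 595 and 652 CPM in untreated cells, and was not called. The 5 falls became 3 without TNF replicate 1 and 3 without untreated replicate 2.

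Of 26 collagen genes tested, 2 rose and 4 fell, beside 12.0 and 8.8% of all genes, with a median of -0.13. Their summed level was 30870 and 40180 CPM with TNF, against 33770 and 42460 CPM in untreated cells. The fibrillar genes Col1a2 and Col3a1 were not called, with Col1a2 at 5818 and 8324 CPM with TNF, against 6046 and 8454 CPM in untreated cells. Col5a3 (1.84 ± 0.17) and Col18a1, the source of endostatin (1.1 ± 0.15), were the rises. Col8a1 (-0.77 ± 0.14) and Col11a1 (-0.54 ± 0.08) were among the falls. The 4 falls became 2 without TNF replicate 1, without TNF replicate 2 or without untreated replicate 2, and with the replicate block 4 collagens rose and 6 fell. Of 36 other matrix genes 3 rose and 5 fell, against 9 and 11 with the replicate block, and the falls numbered 2 or 3 without each library in turn. Tnc, encoding tenascin-C, rose by 0.47 ± 0.1, and Ogn fell (-1.03 ± 0.09). Fn1, encoding fibronectin, had 9119.7 and 10714 CPM with TNF, against 9835 and 10195 CPM in untreated cells, and was not called. Thbs1, a very abundant gene, had 3896 and 3115 CPM with TNF, against 7132 and 5425 CPM in untreated cells; its log2 fold change of -0.84 ± 0.2 had adjusted p = 0.0899 without TNF replicate 2 and 0.083 without untreated replicate 1.

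Of 28 contractile genes 1 rose and 4 fell, with a median of -0.30. With the replicate block 14 fell. Lmcd1, a LIM protein linked to smooth muscle, had 3.59 and 2.76 CPM with TNF, against 18.1 and 14 CPM in untreated cells (-2.33 ± 0.27), and Myh10, a non-muscle myosin, had 259.9 and 269.6 CPM with TNF, against 408 and 376 CPM in untreated cells (-0.57 ± 0.12). Synpo2 was the member that rose (0.76 ± 0.12). Acta2, smooth muscle actin, had 2471 and 1665 CPM with TNF, against 2749 and 1936 CPM in untreated cells, and was not called. Tagln, encoding SM22, had 1235 and 757 CPM with TNF, against 1535 and 1028 CPM in untreated cells, and was called lower with the replicate block (adjusted p = 0.0012) and without a filter on low counts, but not otherwise. For this list replicate 1 stood above replicate 2 in both groups, summing to 18430 and 14640 CPM with TNF, against 19580 and 14980 CPM in untreated cells.

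Of 39 TGF-beta and BMP genes 5 rose and 14 fell (7 and 19 with the replicate block), with a median of -0.20. Tgfb3 had 131 and 102 CPM with TNF, against 311 and 297 CPM in untreated cells (-1.39 ± 0.18) and Tgfb2 fell as well (-0.79 ± 0.13), while Tgfb1 rose (0.77 ± 0.14). Bmp4 had 31.5 and 27.4 CPM with TNF, against 67.6 and 58.3 CPM in untreated cells (-1.09 ± 0.18) and Bmp2 36.9 and 32.8 CPM with TNF, against 8.85 and 7.97 CPM in untreated cells (2.06 ± 0.23), so these related ligands moved in opposite directions. The BMP target genes Id1 (-0.86 ± 0.15), Id3 (-0.96 ± 0.09) and Smad6 (-0.86 ± 0.17) all fell. Inhbb, an activin subunit, rose by 1.03 ± 0.17. Smad3 had 126 and 128 CPM with TNF, against 108 and 119 CPM in untreated cells, and Bmpr2 224 and 238 CPM with TNF, against 273 and 249 CPM in untreated cells, and neither was called.

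In the Wnt, Hedgehog and Notch list 16 of 40 genes fell (23 fell and 2 rose with the replicate block) and the median was -0.68. The count of falls was 9 without TNF replicate 1 and 10 without untreated replicate 2. Wnt5a had 98.5 and 78.8 CPM with TNF, against 175 and 169.8 CPM in untreated cells (-0.96 ± 0.13). Wnt2 had 1.66 and 1.51 CPM with TNF, against 4.35 and 4.94 CPM in untreated cells (-1.55 ± 0.29), and the receptor gene Fzd4 17 and 16.2 CPM with TNF, against 33.6 and 39 CPM in untreated cells (-1.13 ± 0.13). Boc, a coreceptor for Hedgehog (-1.05 ± 0.12), the Notch target Hes1 (-0.74 ± 0.12) and the Wnt modulator Dkk2 (-1.16 ± 0.16) fell too. Axin2, a standard readout of Wnt signaling, had 15.2 and 9.05 CPM with TNF, against 13.8 and 10.1 CPM in untreated cells, and was not called. Notch2 had 145 and 169 CPM with TNF, against 148 and 171 CPM in untreated cells, also with no call.

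Growth factors and their receptors showed 7 rises and 9 falls among 44, with a median of -0.12. With the replicate block these were 12 and 17, and without TNF replicate 1 the falls were 5. Vegfc, a lymphatic growth factor, had 80.4 and 68.7 CPM with TNF, against 17.8 and 15.8 CPM in untreated cells (2.15 ± 0.13), and Pdgfb 33.7 and 32.2 CPM with TNF, against 5.8 and 5.95 CPM in untreated cells (2.48 ± 0.17). Angptl4, a lipase inhibitor, rose by 2.06 ± 0.27 and Fgf7 by 1.15 ± 0.07. Vegfd fell (-0.96 ± 0.19), and Vegfa, with 114 and 90.9 CPM with TNF, against 111 and 97.8 CPM in untreated cells, was not called. Prlr, the prolactin receptor, had the largest fall of any gene that met the naming rule, described next.

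The largest falls were smaller than the largest rises. Prlr had 0.512 and 0.251 CPM with TNF, against 6.82 and 8.67 CPM in untreated cells (-4.3 ± 0.41, adjusted p = 4.2e-06). Palmd, a palmdelphin gene, had 1.41 and 0.88 CPM with TNF, against 7.4 and 8.47 CPM in untreated cells (-2.79 ± 0.27). Wnt16 had 3.59 and 3.02 CPM with TNF, against 19 and 17.5 CPM in untreated cells (-2.46 ± 0.16). Rgs2, an inhibitor of G-protein signaling, had 5.25 and 6.41 CPM with TNF, against 26.7 and 36.1 CPM in untreated cells (-2.43 ± 0.27). Arhgap20 had 9.35 and 14.8 CPM with TNF, against 45.8 and 74.1 CPM in untreated cells (-2.32 ± 0.35). In each of these 5 the gap between groups was wide, though having no overlap was a condition of naming them. Hoxd12, a limb patterning gene, had 4.99 and 3.64 CPM with TNF, against 17.8 and 18 CPM in untreated cells (-2.05 ± 0.25), and Bmp5 had 1.28 and 1.38 CPM with TNF, against 5.95 and 5.14 CPM in untreated cells (-2.04 ± 0.42). Falls of the same order were found for Arsi (-2.56 ± 0.3), Lrrn3 (-2.12 ± 0.31), Shisa2 (-2.15 ± 0.23), Chodl (-2.13 ± 0.35), Ccdc74a (-2.03 ± 0.29) and Adamts3, a procollagen peptidase (-2.27 ± 0.39).

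Cell cycle genes were lower in 12 of 36 cases and higher in 1 (18 and 2 with the replicate block), with a median of -0.31. The count of falls was 6 without TNF replicate 1 and 5 without untreated replicate 2. Tk1, thymidine kinase, had 8.07 and 7.54 CPM with TNF, against 19 and 15.2 CPM in untreated cells (-1.12 ± 0.16), and Aurkb, a mitotic kinase, 12.7 and 11.7 CPM with TNF, against 20.2 and 20 CPM in untreated cells (-0.72 ± 0.13). Cdkn1c, encoding the inhibitor p57, also fell (-0.78 ± 0.14). Pcna had 35.7 and 43.6 CPM with TNF, against 42.1 and 41.3 CPM in untreated cells, and was not called. Of 17 p53 targets 2 rose and 1 fell, against 4 and 2 with the replicate block. Cdkn1a, encoding p21, had 762 and 577 CPM with TNF, against 718 and 572 CPM in untreated cells, and was not called, while Gadd45a rose by 0.76 ± 0.17.

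In glycolysis 2 of 21 genes rose and 3 fell, beside 12.0 and 8.8% of all genes, and 5 rose and 6 fell with the replicate block. Slc2a6, a lysosomal hexose transporter, had 62 and 69.1 CPM with TNF, against 7.25 and 6.56 CPM in untreated cells (3.25 ± 0.16), and Pfkm, a phosphofructokinase, fell (-0.46 ± 0.09). Ldha had 776 and 545 CPM with TNF, against 794 and 549 CPM in untreated cells, and was not called. Of 25 cholesterol genes 2 rose and 4 fell, with a median of -0.29. The falls were 15 with the replicate block, 1 without TNF replicate 1, 0 without TNF replicate 2, 1 without untreated replicate 1 and 2 without untreated replicate 2. Ch25h, which makes 25-hydroxycholesterol, had 79.9 and 106 CPM with TNF, against 10.9 and 10.5 CPM in untreated cells (3.12 ± 0.21). Of 18 unfolded protein and amino acid response genes 2 rose, with a median of -0.05, against 4 rises and 2 falls with the replicate block. Xbp1 had 102 and 116 CPM with TNF, against 95.4 and 105 CPM in untreated cells, with no call. Of 18 clock genes 2 rose and 5 fell; Dbp, a clock output gene, had 7.81 and 6.28 CPM with TNF, against 17.4 and 23.1 CPM in untreated cells (-1.53 ± 0.19), and the falls became 2 without TNF replicate 2 and 3 without untreated replicate 1.

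Immediate early genes were mixed at this late time, with 11 rises and 4 falls among 33 and a median of 0.19. Without TNF replicate 1 the falls were 2. Junb had 146 and 144 CPM with TNF, against 52.4 and 42.2 CPM in untreated cells (1.63 ± 0.09) and Ier3 63.4 and 58.1 CPM with TNF, against 26.5 and 21.5 CPM in untreated cells (1.35 ± 0.17). Myc rose by 0.98 ± 0.1 and Maff by 1.23 ± 0.19. Nr4a1, an orphan nuclear receptor, fell, with 6.28 and 6.41 CPM with TNF, against 14.6 and 14.9 CPM in untreated cells (-1.22 ± 0.16), and so did Klf4 (-0.49 ± 0.07). Fos had 8.84 and 13.4 CPM with TNF, against 8.12 and 8.57 CPM in untreated cells, and was not called.

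Next the same 8 h libraries were set against the 2 libraries of WT cells at 3 h of TNF. At 8 h, 759 genes differed from 3 h (5.48%), 430 higher (3.11%) and 329 lower (2.38%). This comparison was less stable than the one with untreated cells: the replicate block called 2270, leaving out TNF 8 h replicate 2 called 196, and a fit of the 4 libraries alone called 1. The single genes described here as differing were called in the fit of all libraries and without each of the 4 libraries in turn. Counts by list are from the fit of all libraries only and were not checked with libraries left out.

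Many interferon-stimulated and class I presentation genes were higher at 8 h than at 3 h. By list, 33 of 50 antiviral interferon-stimulated genes, 12 of 25 class I genes, 11 of 16 GTPases and 4 of 15 complement genes were called higher at 8 h. Ccl5 had 264 and 334 CPM at 8 h, against 55 and 77 CPM at 3 h, a log2 difference of 2.17 ± 0.17 (adjusted p = 2.3e-05). C3 had 147 and 260.0 CPM at 8 h, against 28.3 and 42.4 CPM at 3 h (2.51 ± 0.33, adjusted p = 0.00084). Irf7 had 39.6 and 69 CPM at 8 h, against 6.64 and 11.3 CPM at 3 h (2.57 ± 0.38, adjusted p = 0.0018). In untreated cells Irf7 had 8.27 and 15.1 CPM, so the 3 h and untreated libraries overlapped. Ifih1 (1.67 ± 0.26), Nlrc5 (2.19 ± 0.36), Lbp (2.35 ± 0.37), Psmb10 (1.19 ± 0.19), Tap1 (1.3 ± 0.17) and the receptor gene Tlr3 (1.61 ± 0.24) were also higher at 8 h than at 3 h. Mmp3 had 245 and 230.5 CPM at 8 h, against 50.1 and 56.5 CPM at 3 h (2.15 ± 0.11).

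Of the 16 IkB proteins and ubiquitin brakes, 2 were higher at 8 h than at 3 h and 0 lower, with a median of -0.07. Nfkbia had 22.9 and 18.8 CPM in untreated cells, 364 and 427 CPM at 0.5 h, 599 and 626 CPM at 1 h, 357 and 378 CPM at 3 h and 309 and 317 CPM at 8 h. Tnfaip3 followed a like course, with 12.5 and 9.98 CPM in untreated cells, 626 and 601 CPM at 1 h and 181 and 221 CPM at 8 h. Neither was called between 8 and 3 h, with a log2 difference of -0.23 ± 0.1 for Nfkbia and -0.13 ± 0.13 for Tnfaip3. Nfkb1 was lower at 8 h than at 3 h (-0.59 ± 0.07, adjusted p = 0.00023) while still above untreated. Ccl20 had 163 and 171 CPM at 8 h, against 150.4 and 127 CPM at 3 h, and was not called.

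Several genes were lower at 8 h than at 3 h. Nr4a3, an orphan nuclear receptor, had 1.54 and 1.13 CPM at 8 h, against 8.85 and 7.63 CPM at 3 h (-2.61 ± 0.28, adjusted p = 0.00019), and was not called against untreated cells. Nr3c2, the mineralocorticoid receptor, had 2.69 and 2.76 CPM at 8 h, against 19.2 and 31.2 CPM at 3 h (-3.21 ± 0.31). Nfatc1 had 25.6 and 26.9 CPM at 8 h, against 54.1 and 65 CPM at 3 h (-1.19 ± 0.11); like Nr3c2 it was near its untreated level. Wnt16 (-1.38 ± 0.17), Plxna4, a semaphorin receptor (-1.34 ± 0.19), and Map2, a microtubule protein (-1.0 ± 0.08), were lower at 8 h than at 3 h and also below untreated. Map2 had 19.3 and 19 CPM at 8 h, against 39.4 and 37.5 CPM at 3 h. Among cell cycle genes 8 of 36 were lower at 8 h than at 3 h, the mitotic activator Cdc20 (-0.57 ± 0.09) among them.

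**Figure D4:**
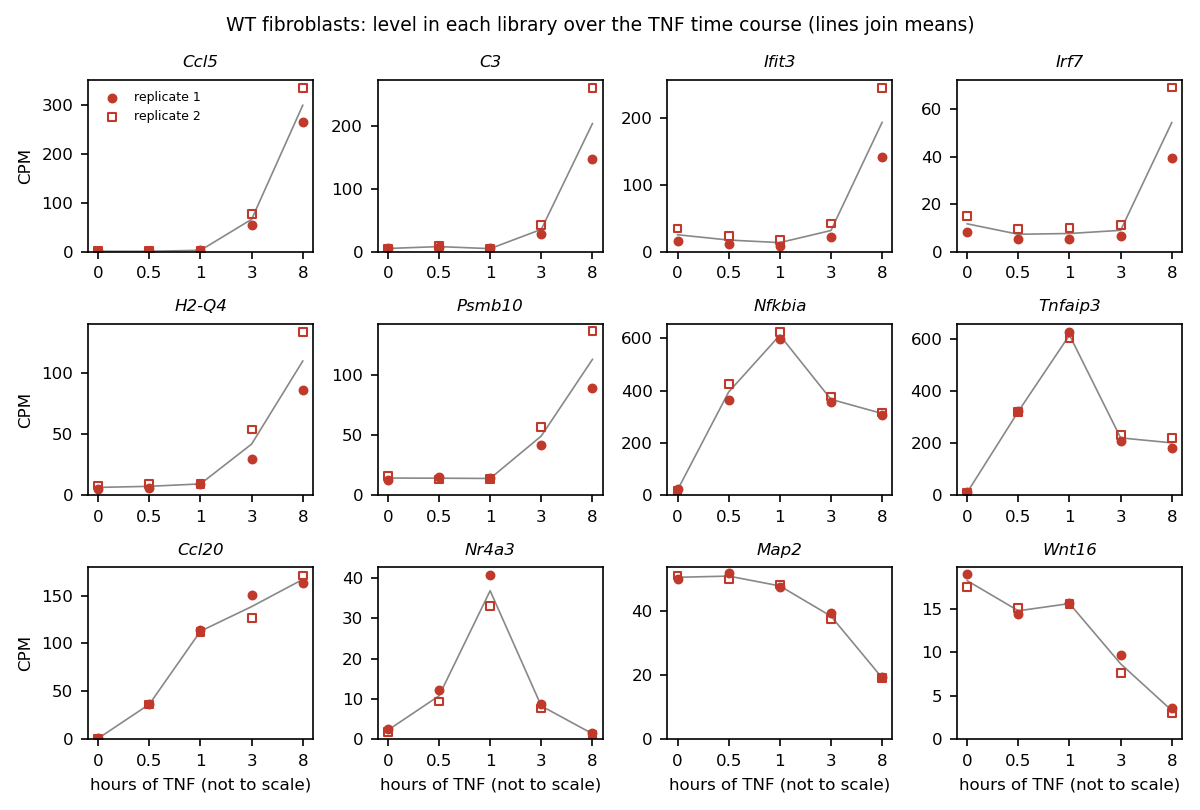
CPM in each WT library (vertical axis) at 0, 0.5, 1, 3 and 8 h of TNF (horizontal axis, not to scale) for 12 genes; filled circles are replicate 1, open squares replicate 2, and lines join the means. Ccl5, C3, Ifit3, Irf7, H2-Q4 and Psmb10 stand highest at 8 h, Nfkbia, Tnfaip3 and Nr4a3 peak at 1 h, and Map2 and Wnt16 are lowest at 8 h.

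Last, the WT response was set beside that of RelA-TA-KI cells given the same TNF dose for 8 h; the series title places the allele in a study of RelA transactivation. The difference of the responses, RelA-TA-KI minus WT, was called for 951 genes (6.87%), of which 478 were positive (3.45%) and 473 negative (3.42%). The replicate block called 2941, and leaving out single libraries called 338 to 975. The genes named as differing were called without each of the 8 libraries in turn. Counts by list are from the fit of all libraries only.

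The WT response was larger for part of the antigen presentation and GTPase genes. By list, the difference was negative and called in 12 of 25 class I genes, 7 of 16 GTPases, 9 of 50 antiviral interferon-stimulated genes and 3 of 15 complement genes. Among 13 leukocyte adhesion genes it was negative in 2 and positive in 2, with a median of 0.29. C3 had 5.15 and 6.87 CPM in treated RelA-TA-KI cells and 2.83 and 2.67 CPM in untreated ones, against 147 and 260.0 CPM in treated WT cells and 6.24 and 3.83 CPM in untreated ones. Its response was 1.13 ± 0.57 in RelA-TA-KI cells and 5.38 ± 0.41 in WT cells, a difference of -4.24 ± 0.77 (adjusted p = 0.0057). Lbp responded by -0.1 ± 0.47 in RelA-TA-KI cells and 4.3 ± 0.44 in WT cells (difference -4.4 ± 0.65, adjusted p = 0.0015). Icam1 responded by 2.35 ± 0.21 in RelA-TA-KI cells and 4.09 ± 0.22 in WT cells (difference -1.73 ± 0.29, adjusted p = 0.0036). The same direction held for Gbp2 (-3.34 ± 0.44), Ptx3 (-3.55 ± 0.34), H2-Q4 (-3.06 ± 0.5), Irf1 (-2.26 ± 0.24), Psmb10 (-2.1 ± 0.29), Tapbp (-1.9 ± 0.25), Fas (-1.84 ± 0.17), Cx3cl1 (-1.46 ± 0.21) and Relb (-1.03 ± 0.19).

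For other genes that rose in WT cells the difference was not called. Ccl2 responded by 5.96 ± 0.17 in RelA-TA-KI cells and 5.79 ± 0.17 in WT cells, a difference of 0.17 ± 0.21. Ccl20 responded by 6.6 ± 0.23 in RelA-TA-KI cells and 7.84 ± 0.18 in WT cells (-1.23 ± 0.58). For immediate early genes the difference ran the other way, positive and called in 21 of 33. Dusp1, a phosphatase of MAP kinases, responded by 1.88 ± 0.23 in RelA-TA-KI cells and 0.16 ± 0.23 in WT cells (difference 1.72 ± 0.33, adjusted p = 0.0068). Myc responded by 2.25 ± 0.1 in RelA-TA-KI cells and 0.98 ± 0.1 in WT cells (1.27 ± 0.14), and Lif by 4.02 ± 0.22 in RelA-TA-KI cells and 1.9 ± 0.22 in WT cells (2.11 ± 0.32). Thbs1 had a positive response in RelA-TA-KI cells (0.71 ± 0.2) and a negative one in WT cells (-0.84 ± 0.2). Dkk2 (0.34 ± 0.14 in RelA-TA-KI cells, -1.16 ± 0.16 in WT cells) and Timp3 (0.25 ± 0.06 in RelA-TA-KI cells, -0.43 ± 0.06 in WT cells) likewise differed in sign.

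**Figure D5:**
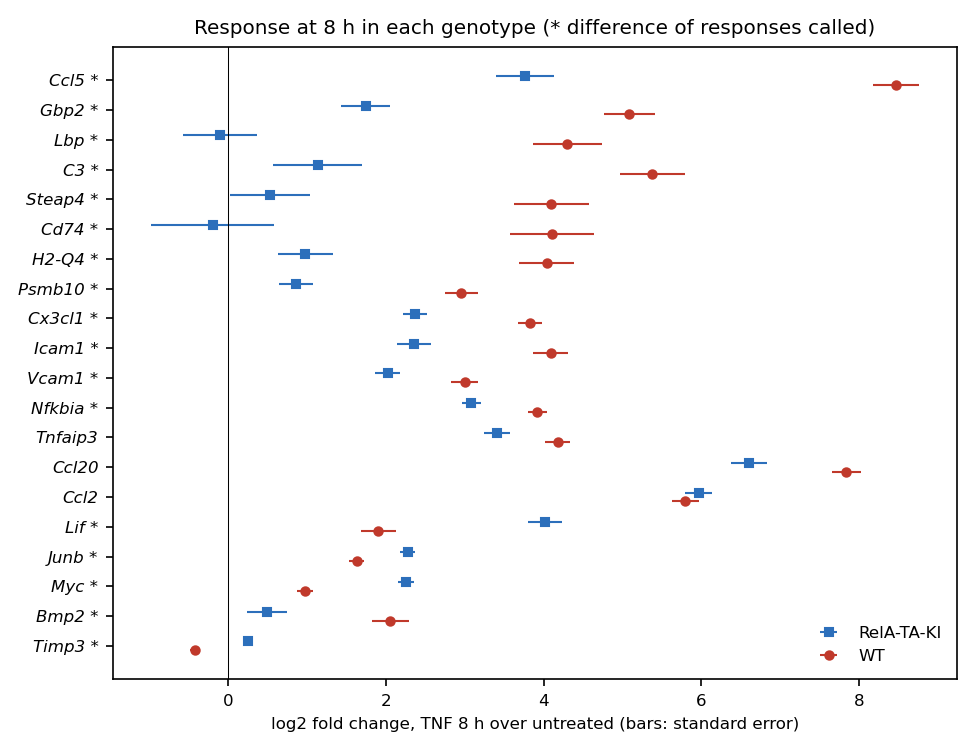
Log2 fold change of TNF 8 h over untreated with its approximate standard error (horizontal axis) for 20 genes in RelA-TA-KI cells (blue squares, above) and WT cells (red circles, below). An asterisk marks genes whose difference of responses was called in the fit of all libraries. The WT points lie to the right from Ccl5 down to Icam1, while Lif, Junb and Myc lie to the left of their RelA-TA-KI points.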

How the data were processed

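Per the submitters' processing notes, the authors' tools were cutadapt 1.9.1, STAR, featureCounts 1.4.6 and DESeq2, with the mm10 genome; the annotation release, strand setting and treatment of reads with several places to map are not given in the sources used here. What the authors deposited is a raw count for each gene in each library, tested as deposited. All columns were used (0 left out), and 45143 of 45706 identifiers were given a symbol. The LPS and Poly(I:C) libraries were not analysed here beyond their totals. The 20 libraries of the TNF table (10 groups) were fitted together with edgeR 4.0.16 in R 4.3.3: TMM scaling, filterByExpr (13843 genes kept), and the quasi-likelihood F test (10 residual degrees of freedom). P-values were adjusted over all genes tested by Benjamini-Hochberg and called below 0.05. The biological coefficient of variation was 10.2%. CPM used TMM library sizes, and TPM divided counts by the gene length in the deposited table. Standard errors were approximated as the log2 fold change over the square root of F, which is too small for large changes from few counts. Intervals of ratios (95%) and floors of 3 counts cover counting error only. The script was tested on simulated data, which held no shift shared by same-numbered libraries.

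Replicate numbers were taken to pair samples within a genotype, because deviations from the group means of same-numbered libraries correlated above 0.1 in all 10 pairs of WT groups (0.161 to 0.529; 0.309 for untreated with 8 h) and in all 10 pairs of RelA-TA-KI groups (0.161 to 0.37). Between genotypes the 25 pairs of groups gave 0.006 to 0.338, so the ranges overlapped. This measure does not show that the shift is limited to libraries of the same genotype. The fit called the replicate block adds the number within genotype. Unless the replicate block is named, calls come from fits without the replicate number. Genes named are the 15 of largest rise and 15 of largest fall against untreated, and the 10 of each against 3 h, where called, averaging 20 counts or more, with no overlap of groups and still called without each library in turn; genes without untreated counts and at least 50 counts with TNF; and any member of the gene lists. Genes and lists were chosen with earlier results of these data known. Alternatives were DESeq2 1.42.0, its size factors, no filter, only the libraries of a contrast, the replicate block, and each library left out.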

Additional observations from a re-analysis of the deposited data

Results flagged for a closer look

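Of the genes given with values above, 73 had a response to TNF at 8 h that differed between the genotypes in the test of the difference itself (edgeR, called below an adjusted p of 0.05, 2 libraries in each of 4 groups). The values are log2 differences, RelA-TA-KI response minus WT response, so a negative one marks a response that was more positive in WT cells. Of the 73, 34 kept the call without each of the 8 libraries in turn. Among these, negative values were found for Lbp (-4.4), Gbp6 (-4.37), C3 (-4.24), Ptx3 (-3.55), Gbp2 (-3.34), H2-Q4 (-3.06), Ripk2 (-2.31), Irf1 (-2.26), Psmb10 (-2.1), Tapbp (-1.9), C1s1 (-1.85), Fas (-1.84), Nfkbie (-1.75), Icam1 (-1.73), Slc2a6 (-1.72), Cp (-1.71), Tap2 (-1.65), Birc2 (-1.52), Cx3cl1 (-1.46), Tnip1 (-1.22), Relb (-1.03), Ikbke (-1.01), Id3 (-0.94) and Cxcl12 (-0.91). Positive ones were found for Nr4a1 (2.35), Lif (2.11), Dusp1 (1.72), Thbs1 (1.55), Dkk2 (1.5), Myc (1.27), Tnc (1.08), Vegfa (0.93), Cflar (0.77) and Timp3 (0.68).

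The other 39 genes lost the call without at least 1 library. Among them, negative values were found for Nos2 (-4.75), Ccl5 (-4.7), Gbp5 (-4.49), Cd74 (-4.31), Hoxd12 (-2.0), Herc6 (-1.98), Casp4 (-1.76), Parp9 (-1.57), Bmp2 (-1.56), Ifit2 (-1.53), H2-K1 (-1.52), Stat2 (-1.34), Dbp (-1.29), Trim21 (-1.25), Tap1 (-1.18), Il13ra1 (-1.09), Ddx58 (-1.08), Sod2 (-1.07), Mmp3 (-1.07), Vcam1 (-0.98), Gadd45a (-0.93), Birc3 (-0.88), Nfkbia (-0.84), Mmp2 (-0.76), Ifitm3 (-0.73), Adamts5 (-0.67), Kitl (-0.57), Ogn (-0.54) and Ifngr2 (-0.4). Positive ones were found for Ptgs2 (2.94), Nr4a3 (2.17), Cd44 (1.3), Plxna4 (1.1), Ier3 (1.09), Tnfrsf1b (0.99), Inhbb (0.9), Hes1 (0.68), Junb (0.65) and Alcam (0.42). By library, the genes out of 73 that lost the call numbered 31 without RelA-TA-KI untreated replicate 2, 30 without WT untreated replicate 1, 25 without WT TNF 8 h replicate 2, 23 without RelA-TA-KI TNF 8 h replicate 2, 17 without RelA-TA-KI TNF 8 h replicate 1, 13 without RelA-TA-KI untreated replicate 1, 8 without WT TNF 8 h replicate 1 and 8 without WT untreated replicate 2.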

How the results depend on the processing

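For WT TNF 8 h against untreated, DESeq2, its size factors and no filter kept the count of called genes within 1.5 times. The replicate block called 4534 genes, 2391 higher and 2143 lower, and the 4 libraries alone 1400, 896 higher and 504 lower. Leaving out single libraries gave 1764 to 2278 genes, with 1098 to 1327 higher and 666 to 951 lower. For 8 h against 3 h, no filter on low counts gave 1331 genes (674 higher, 657 lower), the replicate block 2270 (1184 higher, 1086 lower), the 4 libraries alone 1 (1 higher, 0 lower; 759 in the fit of all libraries), and leaving out single libraries 196 to 533 (94 to 338 higher, 102 to 195 lower). For the difference between genotypes, no filter gave 1769 genes (985 positive, 784 negative), the replicate block 2941 (1582 positive, 1359 negative), the 8 libraries alone 384 (193 positive, 191 negative), and leaving out single libraries 338 to 975 (166 to 510 positive, 172 to 465 negative). With only the libraries of a contrast, fewer residual degrees of freedom are left; the cause of the other shifts was not tested.

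Of 183 called genes with values in the text, 178 kept their call and direction under all 9 alternatives and 5 lost the call under at least 1: Mcam, Thbs1, Cd14 and Tek, whose values stand in the report, and Pfkm, which missed the threshold when its 4 libraries were fitted alone. Some of these genes were named because they kept the call without each library in turn. The share that kept it is thus partly set by that choice, and among all called genes it was smaller. Among the genes with values in the text, no direction was reversed where the gene was called in the fit of all libraries or under the alternative. Changes of sign in genes called in neither were not counted. Under an alternative, 4 genes not called gained a call. At 6715022 to 9590932 counts per library, genes under about 20 counts rest on few reads.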
